A study of Mus musculus with 30 samples.

Results

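Among 25611 genes counted in dendritic cells, 33 had almost no reads unless human Jurkat cells had been added to the culture. They were chosen from the counts themselves: at most 20 reads summed over the 18 libraries without Jurkat cells, and at least 30 reads in each of the 6 libraries given Jurkat cells for 4 h. Of 40 genes that met both limits, 7 were left out for their symbols (Ifna1, Ifna2, Ifna4, Ifna5, Ifna6, Rpl10l and Zfp711), because symbols beginning with Ifn, Rpl, Rps, Zfp, Slc, Abc, Col, Trim or Gpr were passed over. All 33 passed the filter on low counts, through the libraries in which they are high. Their near absence without Jurkat cells and their presence at 4 h are therefore what selected them, and those levels are given as a description only.

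The cells were bone marrow dendritic cells grown from Rubcn WT or Rubcn KO mice with 200 ng/ml FLT3L, the cytokine that drives bone marrow precursors towards dendritic cells, and used on day 6 or 7. Each genotype was left untreated, exposed to OVA protein, or exposed to apoptotic Jurkat cells, the last 2 treatments lasting 30 min or 4 h. This made 10 groups of 3 libraries, with FLT3L culture shared by all. Jurkat is an established human T cell leukaemia line, so the libraries with Jurkat cells came from cultures of a mouse and a human cell type, and the counts are against mouse genes. The labels do not state whether the 3 libraries of a group came from separate mice or cultures, so the p-values below measure only the spread between these libraries. Counted reads, in units of 1000000, ranged from 9.73 to 51.6 per library and from 41.4 to 50.8 in the 12 libraries with Jurkat cells. Rubcn was lower in KO than in WT libraries without overlap in 5 of 5 conditions. The drop was partial, from a mean of 98.9 CPM in untreated WT to 72.8 CPM in untreated KO. With Jurkat cells for 30 min the means were 80.9 CPM in WT and 68.5 CPM in KO. All 15 dendritic cell markers examined were at or above 1 CPM in every untreated library.

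Dendritic cells take up dying cells, and Rubcn encodes Rubicon, a protein needed for LC3-associated phagocytosis, in which components of the autophagy machinery are attached to the phagosome that holds the engulfed cargo. A dying cell brings its own RNA into the culture, and a phagocyte can in turn switch on its own genes in response. Protein-coding sequences of mouse and human are much alike, so that reads of one species can align to the other. Retrogenes and processed pseudogenes are copies of a spliced messenger RNA that were written back into the genome, and they differ from their multi-exon source gene by scattered base changes.

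The 33 genes fell into 3 classes by sequence. Of these, 16 (48.5%) were copies, meaning transcripts of at most 2 exons that aligned to a coding gene with more exons, against 202 of 14704 tested genes with a transcript (1.37%). A further 4 had a close paralog: Actc1 with Acta1, Kcnc4 with Kcnc1, Six6 with Six3, and Uba1y with Uba1. The other 13, among them Myo7b, aligned to no other gene at the limits used, as did 90.6% of tested genes. The definition of the classes was written after the genes and their alignments had been seen, so these shares are a description. Transcripts of 1 exon made up 13 of 33, against 4.82% of tested genes, and 8 of 33 were pseudogenes in RefSeq, against 0.905%.

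Coding stretches of 90 bases show how near such a copy is to its source. The pairs of Aldoart2, D1Pas1 and Pgk2 are shown because each copy is intronless and each source is strongly expressed in the untreated cells, and the capitals mark the bases that differ within a pair (GENCODE transcripts, GRCm38).
Aldoart2: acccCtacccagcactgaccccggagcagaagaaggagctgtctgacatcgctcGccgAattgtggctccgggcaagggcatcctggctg
Aldoa: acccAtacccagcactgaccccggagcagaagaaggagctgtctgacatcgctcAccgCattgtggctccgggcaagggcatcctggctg
D1Pas1: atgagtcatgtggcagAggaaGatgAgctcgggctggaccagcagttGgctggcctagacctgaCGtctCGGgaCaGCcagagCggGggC
Ddx3x: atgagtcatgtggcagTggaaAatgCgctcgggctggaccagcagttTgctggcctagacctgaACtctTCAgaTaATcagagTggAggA
Pgk2: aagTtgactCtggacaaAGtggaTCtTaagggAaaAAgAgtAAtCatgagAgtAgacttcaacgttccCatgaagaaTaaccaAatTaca
Pgk1: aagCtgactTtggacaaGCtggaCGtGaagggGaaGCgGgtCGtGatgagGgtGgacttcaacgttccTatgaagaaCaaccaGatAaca
Aldoart2, a testis-expressed copy of the glycolytic enzyme gene Aldoa, differed from it at 3 of these 90 bases. D1Pas1, a germ-cell copy of the RNA helicase gene Ddx3x, differed at 15, and Pgk2, the sperm form of phosphoglycerate kinase, differed from Pgk1 at 20. Over the whole aligned coding sequence the identities were 91.9%, 86.9% and 79.7%, and over the 16 copies they ranged from 79.7% to 98.4%.

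In libraries without Jurkat cells the source genes were read and the copies were not. Aldoa had 394013 reads over the 18 libraries, beside 12 for Aldoart2. Ddx3x had 328382 beside 5 for D1Pas1, and Pgk1 had 57712 beside 1 for Pgk2. Pabpc1, which encodes the cytoplasmic poly(A)-binding protein, had 679883 beside 1 for its copy Pabpc6. The 16 source genes had a median of 139.7 CPM (counts per 1000000 of the scaled library size) in untreated WT libraries, and each was above 10 CPM.

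With Jurkat cells for 4 h the copies stood at 0.171% to 33.5% of their sources in WT libraries. Aldoart2 averaged 12.5 CPM, which was 1.78% of the 698.7 CPM of Aldoa. D1Pas1 stood at 1.10% of Ddx3x, Pgk2 at 1.63% of Pgk1, and Pabpc6 at 0.244% of Pabpc1. Tyms-ps stood at 8.43% of Tyms, the thymidylate synthase gene. The highest shares, picked out after their values had been seen, were 33.5% for Gm5643 against Hnrnpa1 and 27.1% for 1700071K01Rik against Phb. Their sources had few reads, with Hnrnpa1 at 20.2 CPM and Phb at 18.1 CPM in these WT libraries. How reads that align to both copy and source were counted is not stated. All these shares are ratios of read counts not divided by length.

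**Figure D1:**
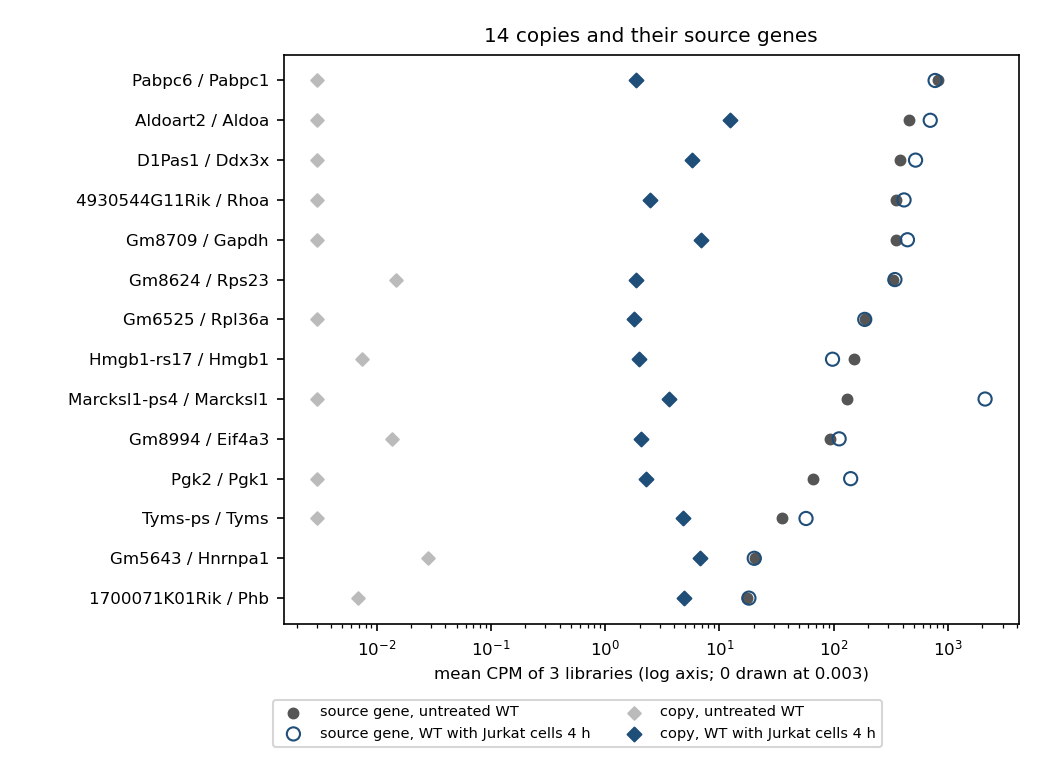
Mean CPM over 3 libraries, on a log axis, of 14 of the 16 copies (diamonds) and their source genes (circles) in untreated WT libraries (grey) and in WT libraries with Jurkat cells for 4 h (blue). The source genes lie between 17.5 and 822.8 CPM without treatment, and every copy moves from near 0 to above 1 CPM with Jurkat cells.

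Myo7b, an unconventional myosin of the brush border in intestine and kidney, was the gene with the most reads (mm10 chr18:31959234-32036931, minus strand, 47 exons). It had 12 reads over the 18 libraries without Jurkat cells. At 30 min of Jurkat cells it stood at 11.4, 12.2 and 12.4 CPM in WT and at 8.26, 8.07 and 6.08 CPM in KO. At 4 h it stood at 44.5, 32.4 and 45.4 CPM in WT and at 23.0, 31.8 and 26.1 CPM in KO. Every KO library was below every WT library at both times, and every 30 min library was below every 4 h library.

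Aldoart2 (chr12:55565205-55566896, plus strand, 1 exon) followed with fewer reads. At 30 min it had 3.63, 3.55 and 3.46 CPM in WT and 2.51, 2.82 and 1.76 CPM in KO. At 4 h it had 14.1, 10.05 and 13.3 CPM in WT and 7.47, 8.90 and 7.72 CPM in KO. The order of the 4 groups was that of Myo7b, again without overlap between genotypes. Per kilobase of exon the 4 h levels of the pair were close, at 5.12 CPM per kb for Myo7b and 6.18 for Aldoart2.

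Reads of most of these genes were already there at 30 min, in libraries that the selection did not use. In 31 of 33 genes each of the 6 libraries with Jurkat cells for 30 min was above all 18 libraries without them, which held for 2.15% of all genes tested; the selection had required those 18 to be near 0, so nothing is read from this count. In addition, 24 genes had at least 10 reads in each of the 6. The exceptions were Sct and Wnt1. The summed level of the 33 genes was 45.1 ± 0.546 CPM (SD, n = 3) in WT and 27.8 ± 6.34 CPM in KO at 30 min. It was 151.8 ± 21.4 CPM in WT and 100.5 ± 14.1 CPM in KO at 4 h, and at most 0.625 CPM in any of the 18 libraries without Jurkat cells. In bulk RNA, fewer cells of a type and less RNA per cell cannot be told apart.

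**Figure D2:**
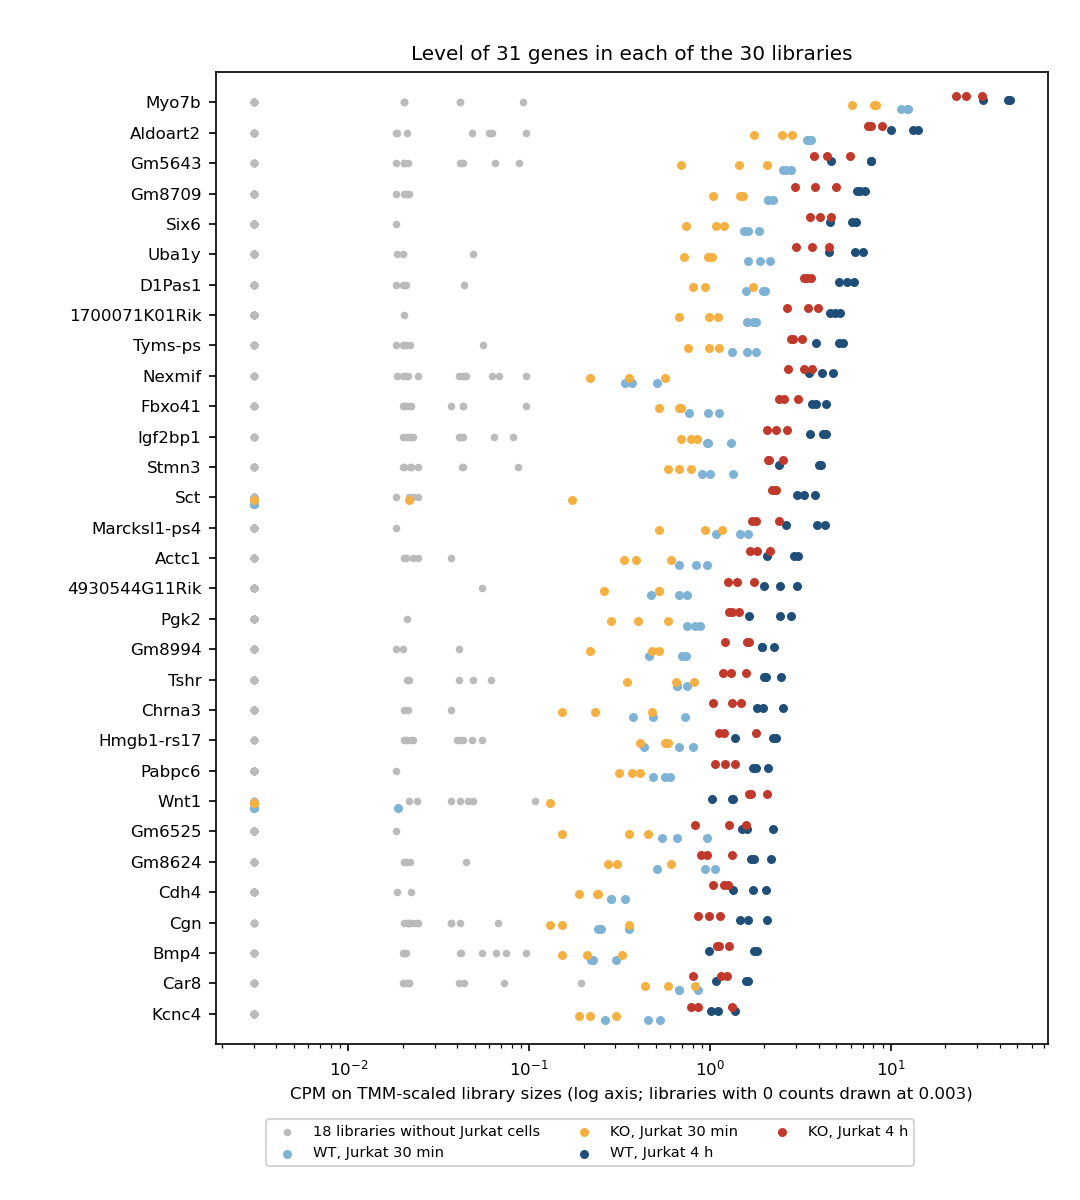
CPM on a log axis of 31 of the 33 genes in each of the 30 libraries: grey, 18 libraries without Jurkat cells; light blue and orange, WT and KO with Jurkat cells for 30 min; dark blue and red, WT and KO for 4 h. Libraries with 0 counts are drawn at the left edge, where 4 of the 6 30 min libraries of Sct and 4 of those of Wnt1 are found; the 30 min libraries of the other 29 genes drawn lie to the right of that gene's grey points.

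The level at 30 min, as a ratio to that at 4 h, was similar across most of the 33 genes. The median ratio was 0.295, against 1.02 over all genes tested. Between 0.2 and 0.6 lay 27 of 33 genes, against 2345 of 14808 genes tested. Myo7b had a ratio of 0.287, Aldoart2 0.288, Six6 0.274 and Uba1y 0.287. The copies ranged from 0.270 to 0.470 with a median of 0.334, the genes with a paralog from 0.274 to 0.301, and the other 13 from 0.0115 to 0.542 with a median of 0.238. The 4 h samples entered the selection, so a ratio below 1 was favoured by it. Ifna1, Ifna2, Ifna4, Ifna5 and Ifna6, which met both limits but were left out for their symbols, had ratios of 0.00361 to 0.00407. The similarity among the 33 genes thus depends in part on that exclusion. The scaling also enters: the summed level of the 33 genes at 30 min was 0.289 of that at 4 h on TMM-scaled libraries and 0.373 on total counts.

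The highest ratio was that of Car8, a carbonic anhydrase-related protein without enzyme activity, at 0.542. Marcksl1-ps4, Tshr (the thyrotropin receptor) and Hmgb1-rs17 lay between 0.347 and 0.405. At the other end were Nexmif, a gene of neurite outgrowth, at 0.106, Bmp4, a secreted morphogen, at 0.178, and the tight junction gene Cgn and the cadherin gene Cdh4, both at 0.182. Nexmif had the highest sum allowed, 20 reads over the 18 libraries, in 12 of them.

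Sct and Wnt1 stood apart from the rest. Sct encodes the gut hormone secretin and Wnt1 a secreted signalling protein. Sct had 0, 0 and 0 reads in WT and 8, 0 and 1 reads in KO at 30 min, and 116, 127 and 110 reads in WT and 85, 87 and 84 in KO at 4 h. Wnt1 had 0, 0 and 1 reads in WT and 6, 0 and 0 in KO at 30 min, and 51, 44 and 34 in WT and 63, 62 and 79 in KO at 4 h. Both were near 0 at 30 min and present in all 6 libraries at 4 h, with ratios of 0.0115 and 0.0164. Wnt1 was the only gene of the 33 whose mean was higher in KO than in WT at 4 h.

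The library with most of the 30 min reads of this pair was KO replicate 1, and that library also stood apart in chemokines. Cxcl10, an interferon-inducible chemokine, was at 102.6 CPM there, against 8.99 and 20.6 CPM in the other KO libraries at 30 min and at most 4.76 CPM in WT. Cxcl9, a related chemokine, was at 59.8 CPM there against 3.81 and 9.62 CPM. The part of this library in the 30 min reads of Sct and Wnt1 was not tested. Both genes were singled out, and these chemokines looked up, after their values had been seen.

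The 250 bases before the annotated start of Sct (chr7:141279134-141279383, minus strand) and of Wnt1 (chr15:98789607-98789856, plus strand) are shown because these 2 genes had a time course unlike the others (RefSeq, GRCm38.p6). Capitals mark matches to TATAAA and to GGGCGG.
Sct: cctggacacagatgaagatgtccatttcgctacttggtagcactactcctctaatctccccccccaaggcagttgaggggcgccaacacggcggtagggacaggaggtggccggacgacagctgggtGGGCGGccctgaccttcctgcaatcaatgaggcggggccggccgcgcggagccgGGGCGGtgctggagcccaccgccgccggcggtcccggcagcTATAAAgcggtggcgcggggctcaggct
Wnt1: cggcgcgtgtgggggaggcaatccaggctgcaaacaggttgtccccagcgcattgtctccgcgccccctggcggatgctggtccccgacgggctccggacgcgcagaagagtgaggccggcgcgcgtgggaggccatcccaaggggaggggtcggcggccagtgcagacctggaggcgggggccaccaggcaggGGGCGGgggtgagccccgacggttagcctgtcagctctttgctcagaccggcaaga
The Sct stretch held 1 match to TATAAA and 2 to GGGCGG, and the Wnt1 stretch held 1 match to GGGCGG. On both strands, TATAAA was found in 12.4% of 32851 RefSeq promoters of this length and GGGCGG in 32.7%. Neither stretch held TGANTCA (an AP-1 site, in 6.75% of promoters) or CCAAT (in 33.8%). Among the 18 genes with a promoter in the table, 1 held TATAAA, 8 held GGGCGG, 1 held TGANTCA and 6 held CCAAT. These matches describe the letters only.

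The KO and WT libraries were then compared at each time with edgeR's quasi-likelihood test over 14808 genes. At 30 min, where the selection used no library, 12 of 33 genes were lower in KO at an FDR under 0.05, against 3.67% of all genes tested, and 0 were higher, against 5.58% (9.25% in either direction). DESeq2 called 1 higher at the same FDR limit, against 757 of 14808 genes tested. At an unadjusted p under 0.05 in edgeR, 22 were lower and 1, Sct, was higher. The share of all genes at that unadjusted limit was not computed, so nothing is read from these unadjusted counts. The log2 fold change was below 0 in 31 of 33, with a median of -0.66 against -0.003 over all genes tested. In 18 of 33 genes every KO library was below every WT library, which held for 12.3% of all genes tested. The count of 12 fell to 7 without KO replicate 2, to 2 without KO replicate 3, and to 4 without WT replicate 1 or WT replicate 2. Lower calls over all genes fell too, from 544 to 348, 297, 345 and 261 in the same order. KO replicate 3 had the lowest summed level, at 20.8 CPM beside 33.1 and 29.7 CPM, and its part in these falls was not tested.

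Myo7b was lower in KO at 30 min by a log2 fold change of -0.68 (SE 0.143, adjusted p = 0.00266, edgeR). Uba1y, the Y-linked ubiquitin-activating enzyme of the germ line, changed by -1.06 (adjusted p = 0.00548), from 1.88, 1.63 and 2.14 to 0.975, 1.02 and 0.716 CPM. Six6, a homeobox gene of eye and pituitary, changed by -0.73 (adjusted p = 0.0319). Myo7b, Uba1y and Six6 were without overlap between genotypes at this time. Among the called genes were also Aldoart2 (-0.58, adjusted p = 0.0499), Tyms-ps (-0.71, adjusted p = 0.0365) and Pgk2 (-0.95, adjusted p = 0.0422). The call for Aldoart2 was lost on total counts (adjusted p = 0.0647), with the stricter filter (0.0501), with the 12 libraries given Jurkat cells alone (0.0518) and in 10 of 12 fits with a library left out, and that for Pgk2 on total counts (0.0505) and in 8 of 12. The calls for Six6 and Tyms-ps were each lost in 4 of 12 such fits, and those for Myo7b and Uba1y in 0. D1Pas1 missed the threshold with -0.68 (adjusted p = 0.0559), and its KO replicate 1, at 1.73 CPM, lay above its WT replicate 2, at 1.58 CPM.

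At 4 h, 17 of 33 genes were lower in KO, against 13.5% of all genes tested, and 0 were higher, against 9.37%. The selection used these libraries with the same minimum for both genotypes, but not their difference. DESeq2 called 0 higher at the same FDR limit, against 1153 of 14808 genes tested. At an unadjusted p under 0.05 in edgeR, 25 were lower and 0 were higher. The share of all genes at that unadjusted limit was again not computed, so nothing is read from these unadjusted counts. The log2 fold change was below 0 in 32 of 33, with a median of -0.58 against -0.009, and in 20 of 33 every KO library was below every WT library, against 20.4%. The count of 17 fell to 7 and 9 without KO replicate 1 or 3, to 8 and 9 without WT replicate 1 or 3, and to 11 on total counts. Lower calls over all genes fell too, from 2004 to 1821, 1726, 1879, 1851 and 1013 in the same order.

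Myo7b changed by -0.60 at 4 h (SE 0.125, adjusted p = 0.00100, edgeR) and Aldoart2 by -0.64 (SE 0.159, adjusted p = 0.00459). Igf2bp1, a fetal messenger RNA-binding protein gene, changed by -0.79 (adjusted p = 0.00171), from 4.38, 3.56 and 4.24 CPM in WT to 2.30, 2.67 and 2.06 CPM in KO, without overlap. Tyms-ps changed by -0.70 (adjusted p = 0.00537), D1Pas1 by -0.73 (adjusted p = 0.00659), Uba1y by -0.69 (adjusted p = 0.0107), Marcksl1-ps4 by -0.87 (adjusted p = 0.0130), Pgk2 by -0.77 (adjusted p = 0.0198), Pabpc6 by -0.63 (adjusted p = 0.0235) and Six6 by -0.48 (adjusted p = 0.0423). Fbxo41, an F-box gene of neurons, changed by -0.57 (adjusted p = 0.0304) and Cgn by -0.79 (adjusted p = 0.0163). On total counts the calls for Six6 (adjusted p = 0.0890) and Fbxo41 (0.0597) were lost, with DESeq2 those for Pabpc6 (0.0788) and Cgn (0.0653), and with no filter on low counts that for Pabpc6 (0.0520). With a library left out, those for Myo7b, Aldoart2, Igf2bp1, Tyms-ps and D1Pas1 were kept in 12 of 12 fits, and those for the other 7 genes named here were lost in 2 to 5. Wnt1 had a log2 value of 0.55 (SE 0.306, adjusted p = 0.210), and each of its KO libraries was above each WT library.

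**Figure D3:**
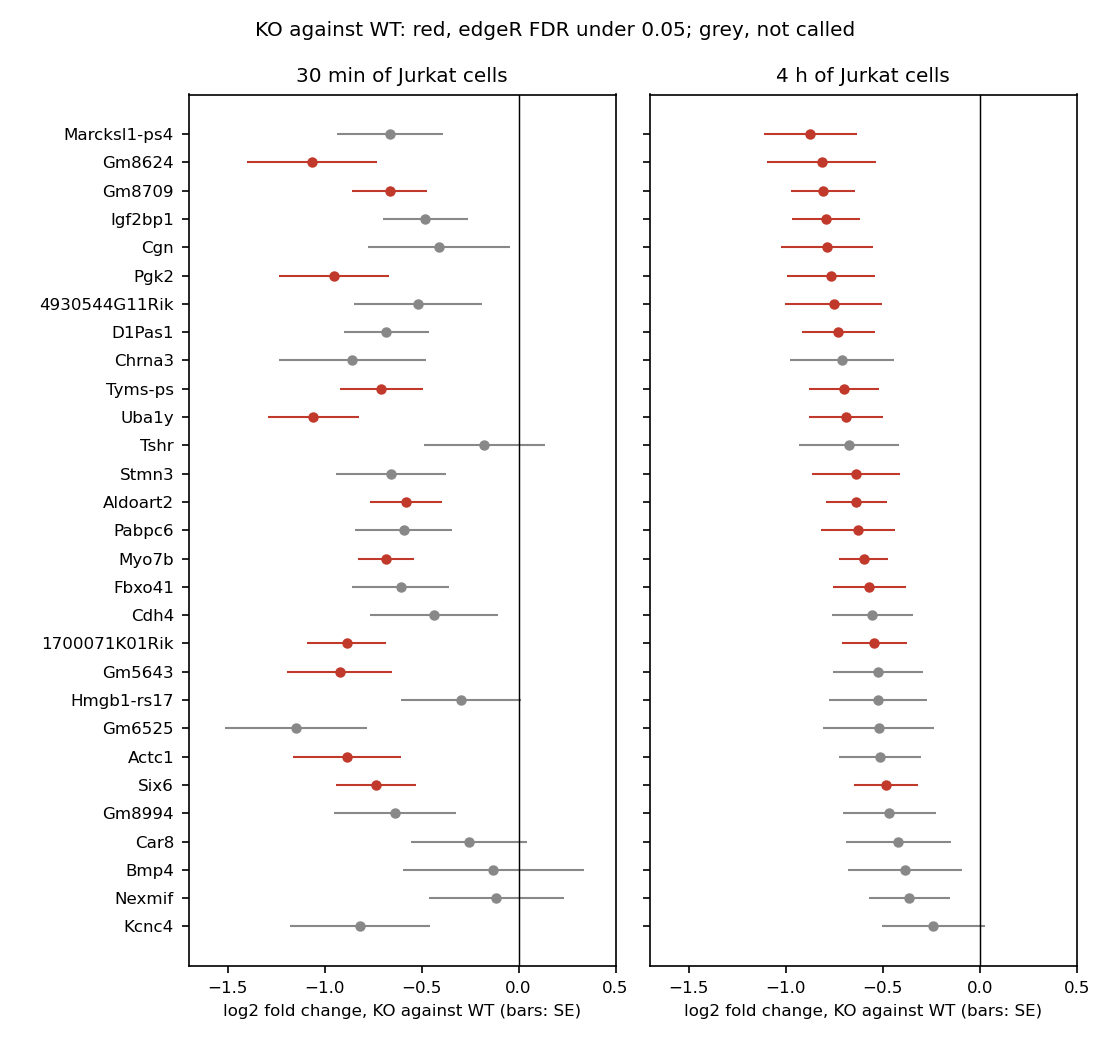
log2 fold change of KO against WT with its SE for 29 genes (among those not drawn are Sct and Wnt1, with few reads at 30 min), at 30 min and 4 h of Jurkat cells; red, edgeR FDR under 0.05; grey, not called. All 29 values lie below 0 at both times.

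Called lower at both times were 9 genes, against 1.6% of all genes tested, and at either time 20, against 15.6%. By class, 8 of 16 copies, 3 of 4 genes with a paralog and 1 of the other 13 were called lower at 30 min. At 4 h these numbers were 10, 2 and 5. Over all genes tested the shares called lower were 3.67% at 30 min and 13.5% at 4 h. Shares called within each class over all genes were not computed, so no difference between classes is read from these counts. The KO to WT ratio of the summed level was 0.617 at 30 min and 0.662 at 4 h. The change from 30 min to 4 h differed between genotypes in 1 of 33 genes (8.83% of all genes tested, 5.85% with a lower and 2.98% with a higher change in KO), Sct, with a log2 difference of -5.14 (edgeR adjusted p = 0.0429); its WT libraries held 0 reads at 30 min, so the size depends on the prior count. The Sct call was lost with the 12 libraries given Jurkat cells alone (adjusted p = 0.0883), and without 9 of the 12 libraries in turn, with -2.83 and an adjusted p of 0.394 without KO 30 min replicate 1.

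The source genes of the copies were compared between genotypes in the same fit. At 4 h Aldoa changed by a log2 value of -0.01 (adjusted p = 0.913, edgeR) beside -0.64 for Aldoart2, and Ddx3x by -0.05 (adjusted p = 0.672) beside -0.73 for D1Pas1. Pgk1 fell by 0.15 (adjusted p = 0.00528) beside -0.77 for Pgk2, and Tyms fell by 0.30 (adjusted p = 0.000154) beside -0.70 for Tyms-ps. These pairs are set side by side, and the difference within a pair was not tested. Acta1, the skeletal muscle actin gene and paralog of Actc1, was at 0.121 CPM in untreated WT and 26.8 CPM at 4 h, with a log2 change of -0.71 in KO (adjusted p = 0.000136), and it was looked at after its values had been seen.

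Genes of the T lineage, to which Jurkat cells belong, were set beside the 33 genes, with no test between the sets. Of 35 symbols in a list of T-lineage genes 32 were matched, and 17 of them were under 1 CPM in untreated cells; none of the 33 genes is in that list. The 32 together had a 30 min level of 1.05 of that at 4 h, but most of their sum was there without Jurkat cells. In WT they summed to 387.3 CPM untreated, 452.8 CPM at 30 min and 444.7 CPM at 4 h. The KO sums were 391.2, 423.1 and 392.3 CPM in the same order. The KO to WT ratio of these 32 was 0.935 at 30 min and 0.882 at 4 h. Of the 30 that were tested, 6 were called lower and 2 higher in KO at 30 min, and 7 lower at 4 h. The shares over all genes tested were 3.67% lower and 5.58% higher at 30 min, and 13.5% lower at 4 h. The 17 summed to 43.1 CPM in WT and 27.3 CPM in KO at 30 min, to 110.1 and 75.5 CPM at 4 h, and to at most 5.53 CPM in any library without Jurkat cells. Their KO to WT ratio was 0.634 at 30 min and 0.686 at 4 h, and their 30 min level was 0.379 of that at 4 h (0.489 on total counts). Lef1 and Zap70, a transcription factor and a kinase of T cells, gave 31.2 and 30.6 CPM of the 4 h sum, and the other 15 had KO to WT ratios of 0.708 and 0.703 and a 30 min level of 0.390 of that at 4 h. Of the 17, 15 passed the filter on low counts. Of these 15, 5 were called lower in KO at 30 min and 6 at 4 h, against 3.67% and 13.5% of all genes tested. None of the 17 was at 0 in all libraries with Jurkat cells, but not all were clearly higher with them. Cd3d, a T cell receptor complex gene, was at 0.115 CPM untreated, 0.0947 at 30 min and 0.0503 at 4 h. In the same order Sh2d2a was at 0.247, 0.177 and 0.260 CPM, and Txk at 0.112, 0.147 and 0.164 CPM.

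The lowest and highest libraries were compared between both sums. KO replicate 3 was lowest at 30 min in the 33 genes (20.8 CPM) and in the T-lineage genes (20.7 CPM). At 4 h WT replicate 2 was the lowest WT library in both, at 127.1 and 90.9 CPM, and KO replicate 2 the highest KO library, at 116.5 and 86.1 CPM. The highest KO library at 30 min differed, replicate 1 in the 33 genes (33.1 CPM) and replicate 2 in the T-lineage genes (30.9 CPM), as did the lowest WT library, replicate 1 (44.7 CPM) and replicate 3 (42.0 CPM). The sum of the copies at 30 min was 22.5, 22.2 and 21.4 CPM in WT and 16.3, 14.1 and 8.84 CPM in KO, so that KO replicate 3 was lowest there too.

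**Figure D4:**
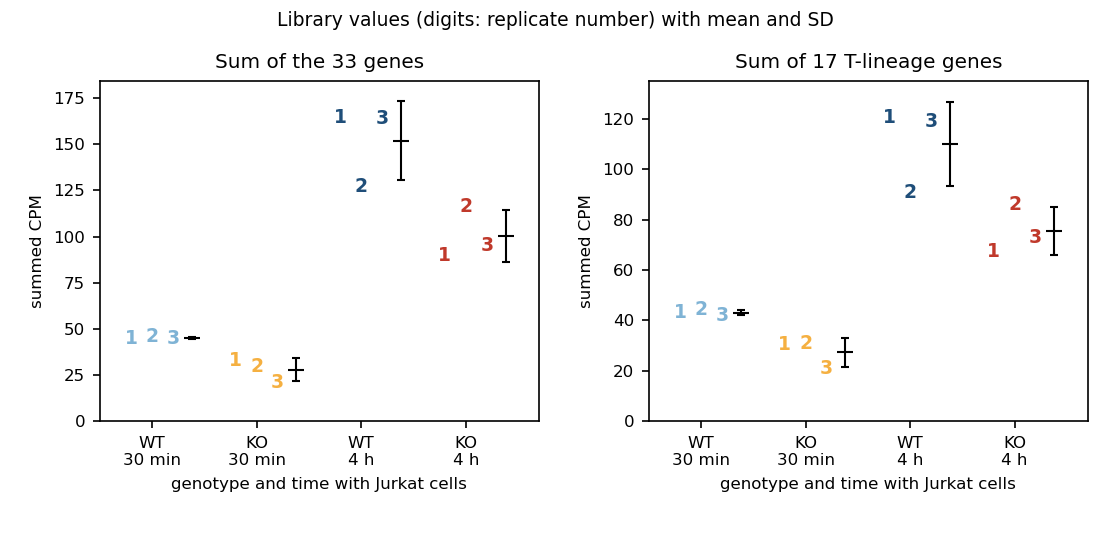
Summed CPM of the 33 genes (left) and of 17 T-lineage genes under 1 CPM in untreated cells (right) in the 12 libraries with Jurkat cells; digits are replicate numbers, the bar is the mean with its SD. In both panels KO replicate 3 is lowest at 30 min and WT replicate 2 is the lowest WT library at 4 h.

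Genes that dendritic cells themselves are known to induce are set beside them, with no test. The interferon list holds the Ifna genes that met both limits of the selection and were left out for their symbols. The interferon list (21 genes, of which Ifna7 and Ifne were at 0 in all libraries with Jurkat cells) summed at 30 min to 0.00775 of its 4 h level, and the list of 62 inducible secreted mediators to 0.0602. The interferon sum at 30 min was 0.131, 0.113 and 0.188 CPM in WT and 0.758, 0.0209 and 0.195 CPM in KO, so that the KO mean of 0.325 CPM was above the WT mean of 0.144 and, without KO replicate 1, below it at 0.108. At 4 h it was 46.8 CPM in WT and 13.7 CPM in KO, a KO to WT ratio of 0.293, and that of the mediators was 1.37 at 30 min and 0.945 at 4 h. Sct and Wnt1, with 30 min to 4 h ratios of 0.0115 and 0.0164, lay between these lists, and Nexmif, at 0.106, was next above the mediators. In KO to WT ratio at 4 h Sct was at 0.667, Wnt1 at 1.47 and Kcnc4 at 0.847, and the median of the 33 genes was 0.667. The added human cells and the dendritic cells' answer to them entered the same libraries, so RNA of the Jurkat cells and induced mouse genes cannot be told apart by group, and human sequence was not used here.

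**Figure D5:**
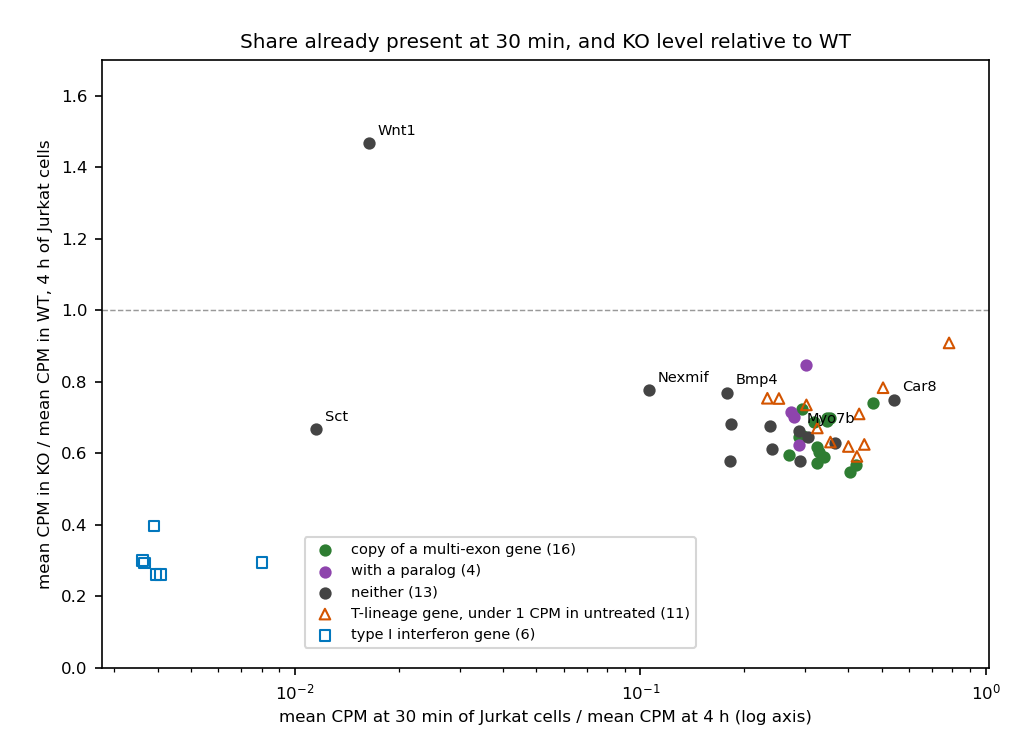
Ratio of mean CPM at 30 min to that at 4 h (log axis) against the KO to WT ratio of mean CPM at 4 h, for the 33 genes by sequence class, for 11 T-lineage genes (under 1 CPM untreated) and for 6 type I interferon genes, both with at least 30 reads in each 4 h library. On the horizontal axis the 31 genes other than Sct and Wnt1 lie between 0.106 and 0.542. The interferon genes lie below 0.01 and the T-lineage genes between 0.233 and 0.783. All interferon genes drawn except Ifnb1 met both limits of the selection and were left out for their symbols.

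The limits of the selection cut through a continuous range. Just inside the limit of 20 reads were Nexmif with 20, Bmp4 with 18 and Igf2bp1 with 18, and just outside were Glb1l2 with 22, Hc with 23 and Dpyd with 25. Just inside the minimum of 30 reads at 4 h were Kcnc4 with 30, Car8 with 31 and Gm6525 with 31, and just outside were Scn8a with 29, 4930503E24Rik with 28 and Glrb with 28. Kcnc4, a potassium channel gene, had 0 reads in the 18 libraries. The 33 genes lay on 18 chromosomes, and 6 overlapped another counted gene, 4 of them on the same strand. One more interval carries the symbol Gm5643, within that of Hnrnpa1, the source of this copy, and held 1 read in all.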

How the data were processed

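RNA was measured by sequencing in 30 libraries, and the deposited table holds raw read counts per gene made by the authors; the submitters' processing notes name STAR 2.5, Subread, featureCounts 1.5.0-p1, DESeq2 and the build mm10, without roles. No source used here gives the annotation, the strand setting or the treatment of reads that align to several places or come from human RNA, so copies and overlapping genes are uncertain. The genes, the lists and the naming rule were chosen with earlier results of these data known.

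Counts were fitted in edgeR 4.0.16 (R 4.3.3) with a mean per group over all 30 libraries, TMM factors and filterByExpr, which left 14808 genes, and tested with its quasi-likelihood test at a Benjamini-Hochberg FDR under 0.05; every adjusted p is from that fit over all genes tested. CPM is the count per 1000000 of the TMM-scaled library size, with factors of 0.765 to 0.842 in libraries with Jurkat cells for 4 h and 1.03 to 1.07 in the others. An SE is the log2 fold change over the square root of F. Levels with Jurkat cells against without, and 4 h against 30 min, were used by the selection and not tested. Named were Myo7b and Aldoart2, the 8 highest at 4 h, the 6 highest and 6 lowest ratios, the 4 smallest p at each time, members of the lists, and the genes nearest each limit; symbols of the form Gm plus digits or ending in Rik were passed over in the ranks, and 2 genes the rule names are not reported here. The 3 copy pairs printed, the pair of promoters, the motifs and the chemokines were chosen after values had been seen.

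Copies were searched with blastn 2.17.0 among GENCODE vM21 transcripts (GRCm38) at 75% identity over 50% of the coding or whole transcript. Stricter searches were tried first, and the class limits were set after their alignments had been seen. On simulated counts for 30 min (14736 genes), 186 of 200 genes with a 2-fold change were recovered, with 15 false among 201 calls. The changed genes were drawn above a minimum WT level. The 33 genes had a smaller median log2 change, -0.66 at 30 min, so this recovery is not a rate for them. Alternatives were other scalings and filters, DESeq2 1.42.0, a replicate block, the 12 libraries with Jurkat cells alone, other limits of the selection and each library left out; leaving out libraries of the selection was added after seeing the data. Depth limits genes with few reads, and counting error is the only error that read numbers carry by themselves.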

Additional observations from a re-analysis of the deposited data

Results flagged for a closer look

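Sct was singled out because the test of the difference between genotypes in the change from 30 min to 4 h passed the threshold, with a log2 value of -5.14 (edgeR adjusted p = 0.0429). Its 30 min counts were 0, 0 and 0 in WT and 8, 0 and 1 in KO, so the value rests on 9 reads.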

How the results depend on the processing

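Genes called lower in KO at 30 min numbered 12 and 7 with the 12 libraries given Jurkat cells alone, and 2 to 14 with a library left out. Under the other scalings, filters and DESeq2 they numbered 9 to 13. Over all genes tested the lower calls were 544, 399 with the 12 libraries alone, and 261 to 590 with a library left out. Genes called higher there numbered 0, and 1 with DESeq2, with 0 to 1 when a library was left out. At 4 h the 17 lower calls became 11 on total counts, which moved the median of all genes to 0.07. They were 14 to 21 otherwise, and 7 to 19 with a library left out, and 0 were called higher in any of these fits. Over all genes tested the lower calls at 4 h were 2004, 1013 on total counts, and 1288 to 2105 with a library left out. The 1 call for the genotype difference in the change with time became 0 with the replicate block, with DESeq2 (no adjusted p for 26 of the 33 genes there) and with the 12 libraries alone, and was 0 to 1 with a library left out. The number of genes selected was 33, and 20 at a limit of 10 reads, 54 at a minimum of 20 reads and 17 at a minimum of 60 reads, with 49 at a limit of 40 reads and 33 to 38 with a library left out. Of 569 refits of 30 single-gene results, 436 kept the call, 133 lost it and 0 changed direction; the cause of these losses was not tested. Replicate numbers are shared between groups, but most samples with the same number did not deviate together. Over 12 pairs r ran from -0.22 to 0.29, with 2 above 0.1 and 3 samples closest to their own number. Both values above 0.1 belonged to KO against WT at 30 min of Jurkat cells, 0.156 for replicate 1 and 0.291 for replicate 3. Each of these was closest to its own number. The replicate block gave 12 lower calls at 30 min and 15 at 4 h. Among the genes named it ended the edgeR calls for Aldoart2 at 30 min (adjusted p = 0.0563), Six6 at 4 h (0.0510) and Sct (0.0585). With 1 library of a group left out, 2 remain.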
